A study of Homo sapiens with 12 samples.

Results

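The 50 genes described here act when a cell divides: they encode cyclins, mitotic kinases, checkpoint proteins, kinetochore and centromere proteins, kinesins, chromosomal passengers, spindle and cytokinesis proteins, chromosome proteins, and 2 transcription factors that drive many of them. They were listed by name for what their proteins do, with earlier results of these data known, and were read from 19775 genes measured on the arrays by a probe set with 1 gene symbol. All 50 had such a probe set, and all 50 were among the 13165 genes bright enough to test. The RNA came from 4 groups of 3 samples, each sample on its own one-colour array (12 in all): PC9 with erlotinib, PC9 with DMSO, HCC827 with erlotinib and HCC827 with DMSO. PC9 and HCC827 are established human cell lines from lung adenocarcinoma, each with an activating EGFR mutation. Erlotinib blocks the kinase of EGFR and was given at 2 micromolar for 8 days, DMSO is its solvent, and both media were renewed during that time. The treatments were also plated differently per the labels, with fewer cells in dishes for DMSO and more cells in flasks for erlotinib, and drug and plating cannot be told apart. The series design text gives flasks for all cells, so the vessel is uncertain.

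Most mitosis genes are transcribed in a wave that starts in late S phase and peaks in G2 and M phase, so their RNA is abundant in dividing cell populations and low in resting ones. The wave is switched by a set of proteins called MuvB. In resting cells MuvB joins pocket proteins and E2F4 in the repressing DREAM complex, and in dividing cells it joins MYBL2 and then FOXM1 in activating complexes. MuvB contacts the cell cycle genes homology region (CHR), a short element close to the transcription start, and the factor NF-Y binds CCAAT boxes upstream of it. In EGFR-mutant lung cancer cells these genes are commonly read as a measure of how many cells still divide. In bulk RNA, fewer dividing cells and less RNA per dividing cell cannot be told apart.

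The promoters of 5 members are shown, chosen by their changes with erlotinib. CDK1, PLK1, SPC25 and KIF2C had the largest fall, as a mean of the lines, of the cyclin, kinase, kinetochore and kinesin groups. Only members with a promoter sequence were considered. CDC20 had the largest difference in change between the lines. Each sequence is from RefSeq on GRCh38.p14, runs 5′ to 3′ on the gene's strand, and holds 130 bases before and 30 bases from the annotated start on. Capitals mark the letters searched for on both strands, which are TTTGAA or TTTAAA for the CHR and CCAAT for the NF-Y box (TTCAAA and ATTGG on the other strand). The windows are chr10:60778348-60778507 (plus strand) for CDK1 at the downstream of its 2 annotated starts, chr16:23678759-23678918 (plus strand) for PLK1, chr2:168890401-168890560 (minus strand) for SPC25, chr1:44739707-44739866 (plus strand) for KIF2C and chr1:43358851-43359010 (plus strand) for CDC20.
CDK1: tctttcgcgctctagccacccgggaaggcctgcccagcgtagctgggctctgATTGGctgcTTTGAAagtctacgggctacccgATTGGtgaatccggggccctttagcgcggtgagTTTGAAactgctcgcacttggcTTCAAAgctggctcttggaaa
PLK1: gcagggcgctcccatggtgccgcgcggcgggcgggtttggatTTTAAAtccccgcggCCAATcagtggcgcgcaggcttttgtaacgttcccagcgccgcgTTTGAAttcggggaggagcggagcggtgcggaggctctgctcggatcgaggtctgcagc
SPC25: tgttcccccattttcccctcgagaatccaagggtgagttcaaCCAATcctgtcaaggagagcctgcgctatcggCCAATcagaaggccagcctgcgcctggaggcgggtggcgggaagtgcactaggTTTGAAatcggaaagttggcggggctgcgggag
KIF2C: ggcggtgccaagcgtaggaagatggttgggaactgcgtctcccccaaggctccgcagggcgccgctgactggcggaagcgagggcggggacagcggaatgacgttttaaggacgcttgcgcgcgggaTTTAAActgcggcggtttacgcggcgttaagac
CDC20: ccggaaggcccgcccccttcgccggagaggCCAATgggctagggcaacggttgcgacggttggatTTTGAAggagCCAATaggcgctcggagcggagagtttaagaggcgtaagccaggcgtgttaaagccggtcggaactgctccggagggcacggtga

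Positions count the start base as 1 and the base before it as -1, with no 0, and those given here are of words in the printed windows. The CHR words of the CDK1 window begin at positions -69, -13 and 10 and its CCAAT words at -78 and -46. PLK1 has CHR words at -88 and -29 with a CCAAT word at -73 between them. In SPC25 a CHR word spans the start (it begins at -3), behind CCAAT words at -88 and -56. KIF2C also has a CHR word at -3 and no CCAAT word in the 300 bases searched. CDC20 has a CHR word at -65, between CCAAT words at -100 and -55. Upstream of the printed windows, within the 300 bases searched, further CHR words lie at -178 in CDC20, -148 in PLK1 and -247 in SPC25. A word match describes the sequence and does not show that a factor binds there.

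Such words were frequent among the mitosis genes. Of the 41 members with a promoter entry (250 bases before and 50 bases from the start on), 33 (80.5%) held a CHR word, against 27.9% of the 27305 genes with an entry and 24.0% of the 15384 of these that the arrays measure. A CCAAT word was also in 33 (80.5%), against 39.7% of all genes with an entry and 41.7% of the measured ones. Both words were in 27 (65.9%), against 11.2% and 9.91%. A CHR word that began within the 60 bases before the start was in 56.1% of members and 6.85% of all genes with an entry. The members without a CHR word were CCNA2, AURKB, BUB1, NEK2, SPC24, CENPK, CKAP2 and MYBL2. AURKA, TTK, PBK, BUB3, UBE2C, BIRC5, TPX2, RACGAP1 and FOXM1 have no entry in the promoter table used.

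**Figure D1:**
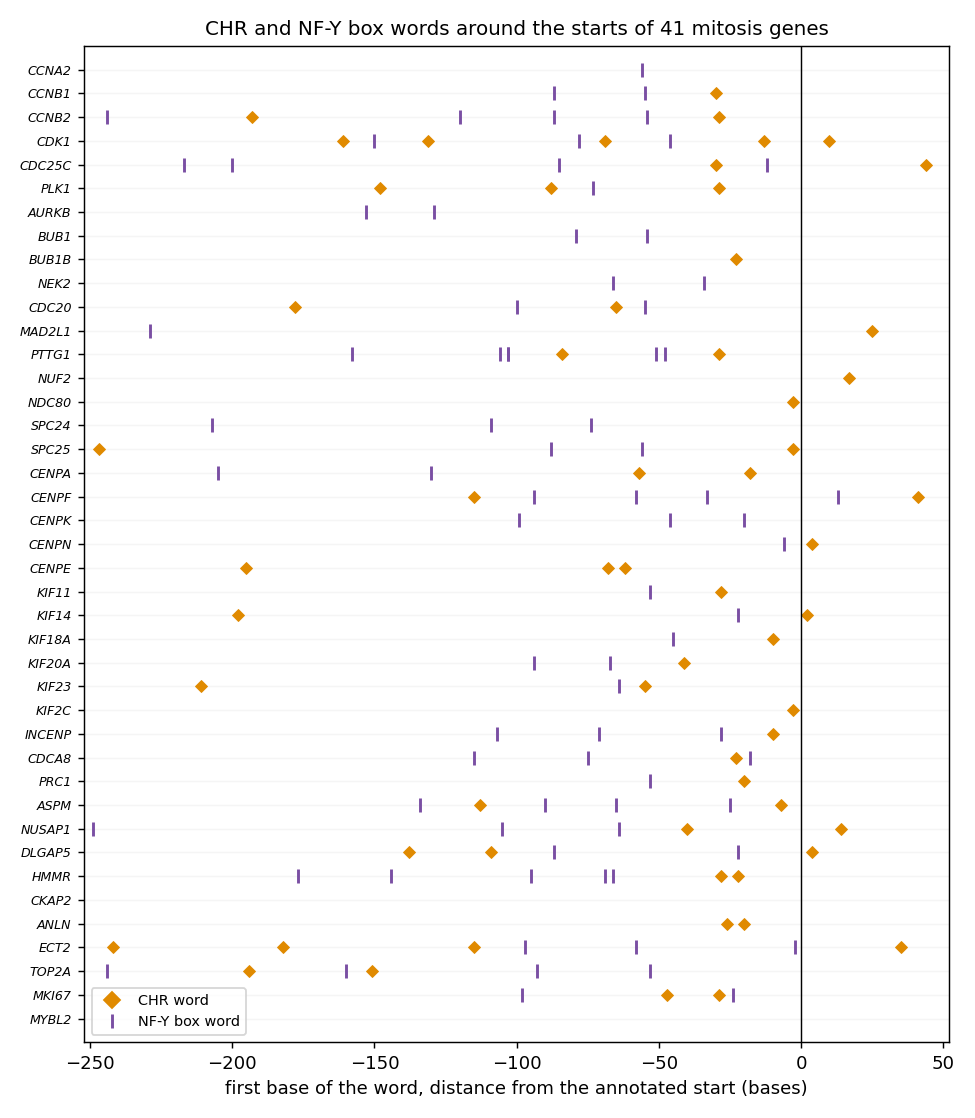
Position of CHR words (diamonds) and NF-Y box words (bars) in the promoters of the 41 mitosis genes with an entry. The horizontal axis is the distance of the first base of the word from the annotated start, in bases, each row is 1 gene, and for a gene with several annotated starts the words around all of them are drawn. In the 60 bases before the start, 56.1% of these genes have a CHR word and 58.5% an NF-Y box word.

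All 50 mitosis genes were lower in PC9 after 8 days of erlotinib, and 45 of 50 were lower in HCC827. The falls were moderate: the median log2 change was -0.73 in PC9 (range -1.27 to -0.25) and -0.51 in HCC827 (range -1.03 to -0.04). Expressed as signal, the median member kept 59.7% of its DMSO level in PC9 and 70.1% in HCC827, and 38 members in PC9 and 48 in HCC827 kept more than 50% of it. On the log2(signal + 8) scale 11 members in PC9 and 1 in HCC827 fell by at least 2-fold. None of the 50 was higher with erlotinib in either line. All these values are from the brightest probe set of each gene. Brighter members tended to fall less: the Spearman rho of mean log2 level and change over the 50 was 0.46 in PC9 and 0.61 in HCC827. The part of level in the rankings of members and roles by size of fall was not tested. The largest falls in PC9 were those of the mitotic kinase PBK, the kinetochore subunit SPC25, the transcription factor MYBL2 and the centromere histone CENPA. The largest in HCC827 were those of PLK1, MYBL2, CENPK and SPC24. The members that did not pass in HCC827 were CDC20, BUB3, BIRC5, INCENP and CENPF.

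A change is a difference of log2(signal + 8), erlotinib minus DMSO, given with its standard error, and a gene counts as lower or higher at a Benjamini-Hochberg adjusted p under 0.05 over all 13165 genes in limma. By that rule 28.3% of all tested genes were lower and 36.4% higher in PC9, and 19.5% were lower and 32.3% higher in HCC827, while the median change of all tested genes was 0.05 in PC9 and 0.07 in HCC827. The erlotinib and DMSO arrays did not overlap for 50 members in PC9 and 46 in HCC827, all with the erlotinib arrays lower, against 28.4% of all tested genes in PC9 and 24.5% in HCC827. Centring each array on its median moved the median of all genes in PC9 to -0.10, a shift over 0.1, and then 50 members in PC9 and 46 in HCC827 were lower. The labels do not say whether samples of a group were grown separately, and the p-values therefore measure only the spread between these samples, which may be technical.

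The cells had the markers of an epithelial line, and some markers of other cell types moved with the drug. All 7 epithelial markers were bright, with summed signals of 15844 to 18470 in PC9 with erlotinib, 16269 to 17653 in PC9 with DMSO, 15283 to 16799 in HCC827 with erlotinib and 16297 to 16721 in HCC827 with DMSO. The summed signal of 6 fibroblast markers was 381 to 465 in PC9 with erlotinib, against 78.0 to 102 with DMSO, and 628 to 690.1 in HCC827 with erlotinib, against 153 to 178 with DMSO. LUM and COL1A1 made up most of it, and DCN, COL3A1, PDGFRB and THY1 did not pass the filter on low signals. The summed signal of 4 measured leukocyte markers was 67.8 to 78.0 in PC9 with erlotinib, against 9.9 to 20.9 with DMSO, nearly all of it ITGAM, while it was 10.7 to 17.9 in HCC827 with erlotinib, against 11.7 to 12.4 with DMSO, and PTPRC, which marks all leukocytes, was at most 5.5 on every array. The summed signal of 4 endothelial markers was 654 to 705 in PC9 with erlotinib, against 895 to 988 with DMSO, from PECAM1 and CDH5. PECAM1 was lower in PC9 with erlotinib (mean 506, against 835 with DMSO), while CDH5 was higher (178, against 105). The sum was 9.6 to 18.0 in HCC827 with erlotinib, against 10.5 to 12.7 with DMSO. The actin 3′/5′ signal ratio, a measure of RNA integrity and amplification, was 2.53, 2.05 and 2.07 in PC9 with erlotinib, against 2.09, 2.09 and 2.35 with DMSO, and was 2.45, 2.99 and 3.64 in HCC827 with erlotinib, against 2.21, 2.10 and 2.19 with DMSO. The part of these markers and of the ratio in the falls was not tested beyond a fit with the ratio as a covariate. In that fit 50 members in PC9 and 38 in HCC827 were lower, beside 3761 and 1594 of all 13165 tested genes.

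**Figure D2:**
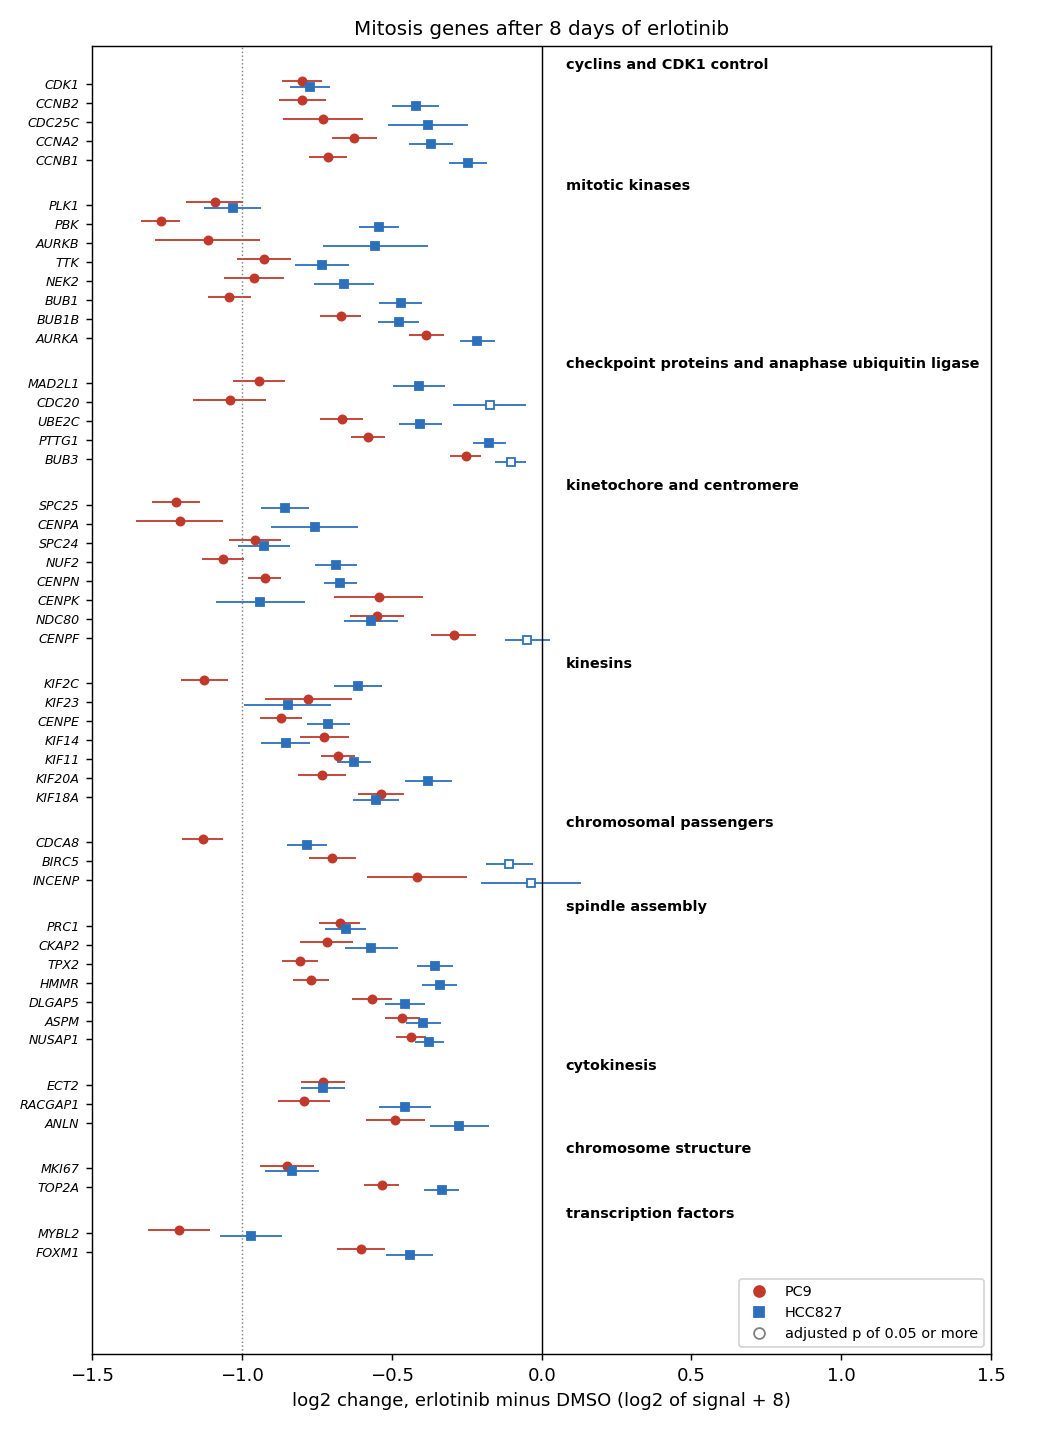
Log2 change of each mitosis gene, erlotinib minus DMSO, in PC9 (circles) and HCC827 (squares), grouped by role. Bars are the standard error of the fit, open symbols have an adjusted p of 0.05 or more, and the dotted line marks a 2-fold fall. All 50 PC9 values lie left of 0 and 44 of them are more negative than the HCC827 value of the same gene.

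Cyclins A and B with CDK1 form the kinase that starts mitosis, and all 5 members of that group were lower in both lines (median -0.73 in PC9 and -0.38 in HCC827). CDK1, the kinase itself, had signals of 1007, 1023 and 1144 in PC9 with erlotinib, against 1669.6, 2022 and 1856 in PC9 with DMSO. Its signals were 1049.7, 1080.3 and 1071 in HCC827 with erlotinib, against 1772, 1824 and 1896 in HCC827 with DMSO. The erlotinib arrays of each line lay well below its DMSO arrays, and the levels of the lines were alike under each treatment. CDK1 fell by 0.80 ± 0.07 (adjusted p = 2.51e-08) in PC9 and by 0.77 ± 0.07 (adjusted p = 7.95e-08) in HCC827. CCNB1, the main B-type cyclin, had signals of 1424, 1639 and 1651 in PC9 with erlotinib, against 2526, 2648 and 2554 in PC9 with DMSO. In HCC827 the drug arrays stood closer to the controls, with 1789, 2118 and 1974 in HCC827 with erlotinib, against 2284, 2402 and 2278 in HCC827 with DMSO. The groups did not overlap in either line, and CCNB1 fell by 0.71 ± 0.06 (adjusted p = 6.63e-08) in PC9 and by 0.25 ± 0.06 (adjusted p = 0.00443) in HCC827. The HCC827 call was lost with the actin ratio as a covariate (adjusted p = 0.0925). A second CCNB1 probe set was lower in both lines, by 0.75 in PC9 and by 0.68 in HCC827. The other B-type cyclin, CCNB2, fell by 0.80 in PC9 and by 0.42 in HCC827. Another CCNB2 probe set did not pass in PC9 (0.06, adjusted p = 0.766) and fell by 0.41 in HCC827 (adjusted p = 0.0464). CCNA2, the cyclin of S and G2 phase, fell by 0.63 and by 0.37 in the same order of lines. CDC25C, a phosphatase that activates CDK1, fell by 0.73 in PC9 and by 0.38 in HCC827.

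The 8 mitotic kinases were lower in both lines and had the largest role median in PC9 (-1.002, against -0.55 in HCC827). PLK1, the polo kinase of mitotic entry and spindle poles, had signals of 139.5, 182 and 152 in PC9 with erlotinib, against 359.5, 337 and 335 in PC9 with DMSO. It had signals of 109, 106 and 100.1 in HCC827 with erlotinib, against 227, 236 and 208 in HCC827 with DMSO. Erlotinib left it at 45.9% of its DMSO signal in PC9 and at 47.1% in HCC827, and its groups were far apart in both. PLK1 fell by 1.09 ± 0.09 (adjusted p = 3.75e-08) in PC9 and fell by 1.03 ± 0.09 (adjusted p = 1.59e-07) in HCC827. On the brightest probe sets its HCC827 fall was the largest among the members. AURKA, the Aurora kinase of the spindle poles, had the smallest changes of the kinases on the brightest probe sets. Its signals were 1804, 1881 and 1941 in PC9 with erlotinib, against 2392, 2419 and 2539.7 in PC9 with DMSO. The HCC827 arrays read 1885, 2030.5 and 2264 in HCC827 with erlotinib, against 2343, 2461 and 2352 in HCC827 with DMSO. The HCC827 groups came close, with the highest erlotinib array just under the lowest DMSO array, and AURKA fell by 0.38 ± 0.06 (adjusted p = 2.45e-05) in PC9 and by 0.21 ± 0.06 (adjusted p = 0.00581) in HCC827. Its other probe sets fell more, with changes of -0.71 and -1.35 in PC9 and of -0.36 and -0.81 in HCC827.

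PBK, a kinase active in mitosis and made by few resting tissues, had signals of 353, 389.7 and 401 in PC9 with erlotinib, against 870.1, 985 and 939.5 in PC9 with DMSO. Signals of PBK were 543, 549.5 and 554 in HCC827 with erlotinib, against 774, 833 and 803 in HCC827 with DMSO. PBK fell by 1.27 ± 0.07 (adjusted p = 7.5e-11) in PC9 and by 0.54 ± 0.07 (adjusted p = 4.05e-06) in HCC827. On the brightest probe sets its PC9 fall was the largest of any member. The DMSO arrays of PC9 were above those of HCC827 while its erlotinib arrays were below them. BUB1, a checkpoint kinase at the kinetochore, had signals of 327, 333 and 340.2 in PC9 with erlotinib, against 639, 718 and 733 in PC9 with DMSO. Its arrays gave 678, 742 and 812 in HCC827 with erlotinib, against 1001, 1061 and 1031 in HCC827 with DMSO. The PC9 erlotinib arrays were very close together and far under the controls, and BUB1 fell by 1.04 ± 0.07 (adjusted p = 2.32e-09) in PC9 and by 0.47 ± 0.07 (adjusted p = 4.39e-05) in HCC827. On 3 other BUB1 probe sets the order of the lines was turned, with changes of -0.86, -1.13 and -0.38 in PC9 and of -1.16, -1.28 and -1.18 in HCC827. AURKB, the Aurora kinase of the passenger complex, fell by 1.12 in PC9 and by 0.56 in HCC827. On a second AURKB probe set the order of the lines was turned, with changes of -0.56 in PC9 and -1.38 in HCC827. NEK2, which separates centrosomes, fell by 0.96 and by 0.66, and the checkpoint kinase TTK fell by 0.93 and by 0.73, each with PC9 given before HCC827. BUB1B, a part of the checkpoint complex, fell by 0.67 in PC9 and by 0.48 in HCC827.

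The checkpoint proteins and the ubiquitin ligase of anaphase, which together time the separation of chromosomes, had the role median of the line difference farthest from 0 (-0.40, PC9 change minus HCC827 change). All 5 were lower in PC9 (median -0.67) and 3 of 5 in HCC827 (median -0.17). CDC20, the activator of the anaphase-promoting complex, had signals of 356, 535 and 504 in PC9 with erlotinib, against 1059, 857 and 947 in PC9 with DMSO. In the other line its signals were 865, 1056 and 1029 in HCC827 with erlotinib, against 1097, 1177 and 1048 in HCC827 with DMSO. The PC9 groups were far apart, while 1 HCC827 erlotinib array lay above 1 DMSO array. CDC20 fell by 1.04 ± 0.12 (adjusted p = 1.4e-06) in PC9, and its change in HCC827 was -0.17 ± 0.12 (adjusted p = 0.25), with a 95% interval of -0.43 to 0.09. MAD2L1, which holds CDC20 back until chromosomes are attached, had signals of 1199.6, 1064 and 1407 in PC9 with erlotinib, against 2147, 2559 and 2349 in PC9 with DMSO. Its signals were 1980.2, 1677 and 1831 in HCC827 with erlotinib, against 2354, 2498 and 2426 in HCC827 with DMSO. No arrays overlapped, and MAD2L1 fell by 0.94 ± 0.09 (adjusted p = 8.36e-08) in PC9 and by 0.41 ± 0.09 (adjusted p = 0.000941) in HCC827, where the call was lost with the actin ratio as a covariate (adjusted p = 0.0734) and without erlotinib replicates 2 and 3 (adjusted p = 0.0841).

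BUB3, a partner of BUB1 and BUB1B, had the smallest mean change of these 5. Its signals were 1909, 1866 and 1733 in PC9 with erlotinib, against 2069, 2327 and 2174 in PC9 with DMSO. HCC827 had 1801, 1771 and 1814 with erlotinib, against 1938, 1973 and 1875 with DMSO. The groups did not overlap in either line, but by a small margin. BUB3 fell by 0.25 ± 0.05 (adjusted p = 0.00044) in PC9 and its change in HCC827 was -0.10 ± 0.05 (adjusted p = 0.11). Its 5 other probe sets were all lower in HCC827, by 0.21 to 0.92, and only the brightest one did not pass there. UBE2C, the ubiquitin-conjugating enzyme of the anaphase ligase, fell by 0.67 in PC9 and by 0.40 in HCC827. PTTG1, the securin that this ligase destroys to free separase, fell by 0.58 in PC9 and by 0.17 in HCC827.

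Kinetochore and centromere proteins, which tie chromosomes to spindle fibres, were lower in 8 of 8 cases in PC9 (median -0.94) and in 7 of 8 in HCC827 (median -0.72). SPC25, a subunit of the NDC80 complex that grips microtubules, had signals of 152, 164 and 187 in PC9 with erlotinib, against 379.9, 421 and 399 in PC9 with DMSO. The signals were 266, 242 and 258 in HCC827 with erlotinib, against 466, 478 and 460.4 in HCC827 with DMSO. Both drug groups lay far below their controls, and SPC25 fell by 1.22 ± 0.08 (adjusted p = 1.36e-09) in PC9 and by 0.86 ± 0.08 (adjusted p = 2.12e-07) in HCC827. The other subunits of this complex fell as well: NUF2 fell by 1.06 in PC9 and by 0.69 in HCC827, SPC24 fell by 0.96 and by 0.93, and NDC80 fell by 0.55 and by 0.57. CENPA, the histone H3 variant that marks centromeres, fell by 1.21 in PC9 and by 0.76 in HCC827. CENPN, which reads CENPA nucleosomes, fell by 0.92 and by 0.67. CENPK, of the inner kinetochore, fell by 0.54 in PC9 and fell by 0.94 in HCC827, the largest fall of the 6 members that fell more in HCC827.

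CENPF, a large protein of the kinetochore corona and nuclear envelope, stood apart. It had signals of 506, 553 and 511 in PC9 with erlotinib, against 632, 609 and 689.6 in PC9 with DMSO. HCC827 arrays had 854, 996 and 966 with erlotinib, against 889.6, 1028 and 993 with DMSO. The HCC827 groups overlapped over most of their range. CENPF fell by 0.29 ± 0.08 (adjusted p = 0.00269) in PC9, and its change in HCC827 was -0.05 ± 0.08 (adjusted p = 0.62). Its probe sets disagreed: a second one fell by 0.44 in PC9 and by 0.87 in HCC827, and another was 0.38 higher in HCC827 with a change of 0.17 in PC9 that did not pass, the only probe set of any member that was higher.

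**Figure D3:**
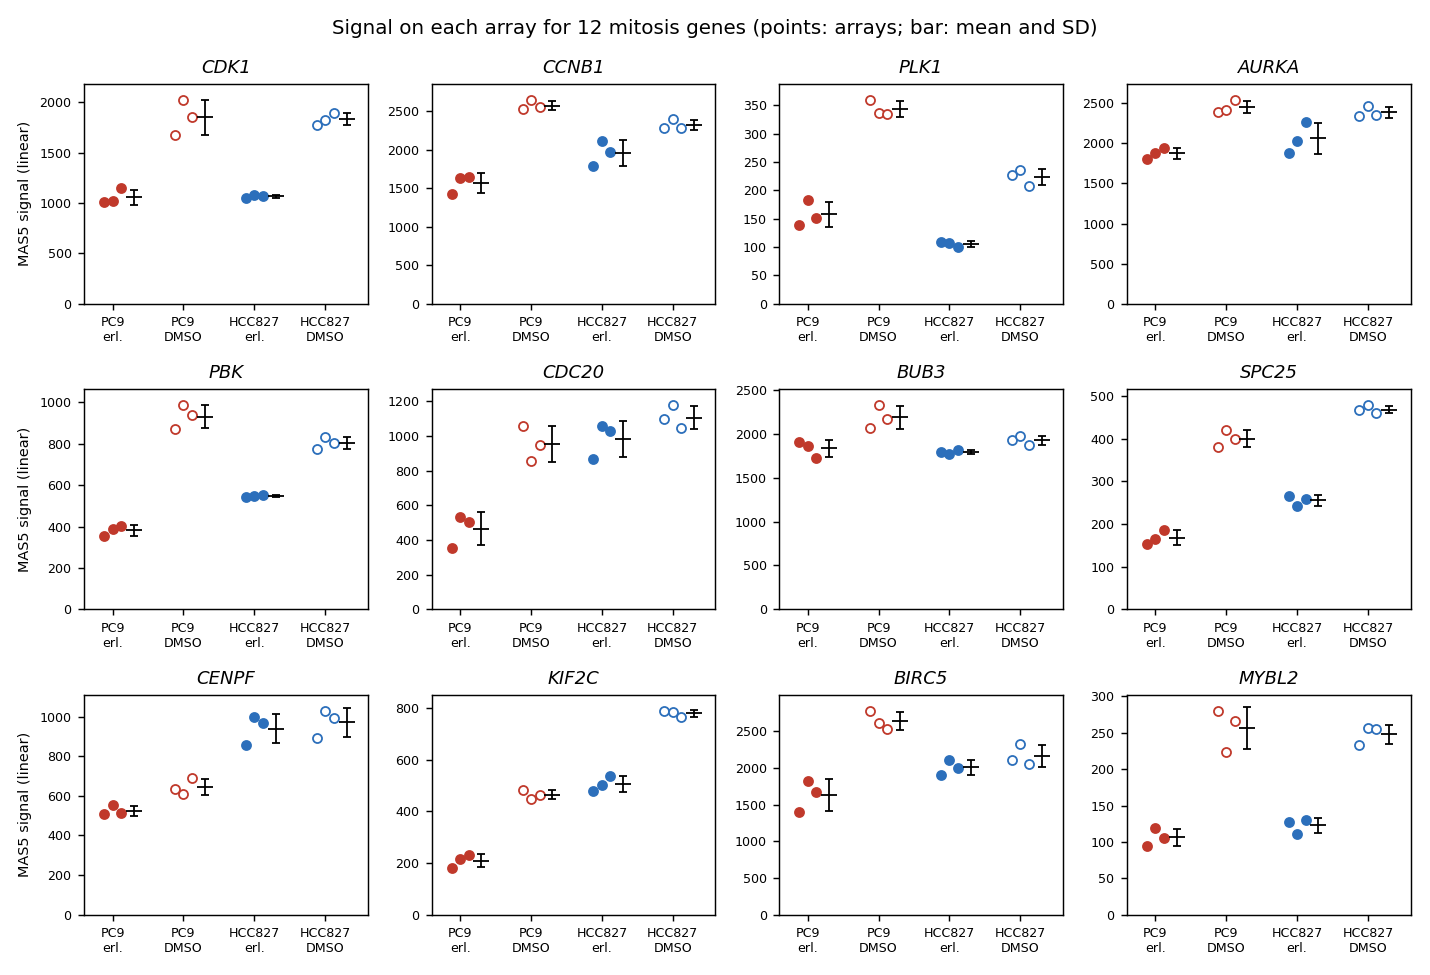
Signal of 12 mitosis genes on every array, on a linear axis from 0. Filled points are arrays with erlotinib, open points arrays with DMSO, and the bar beside them is the mean with its SD (n = 3). In PC9 (red) the filled points lie below the open ones in all 12 panels, while in HCC827 (blue) they overlap for CDC20, CENPF and BIRC5.

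The 7 kinesins, motor proteins that move chromosomes and build the spindle, were lower in all cases in both lines, with nearly the same median (-0.73 in PC9 and -0.63 in HCC827). KIF2C, which takes microtubule ends apart at centromeres, had signals of 183, 214 and 232 in PC9 with erlotinib, against 482, 448 and 464 in PC9 with DMSO. Its HCC827 signals were 478, 504 and 539 with erlotinib, against 789, 785 and 764 with DMSO. The 3 arrays of each group were close together and the groups far apart. KIF2C fell by 1.13 ± 0.08 (adjusted p = 3.56e-09) in PC9 and by 0.61 ± 0.08 (adjusted p = 8.71e-06) in HCC827. KIF18A, which limits the swinging of aligned chromosomes, had signals of 162, 184 and 177 in PC9 with erlotinib, against 254, 248 and 267 in PC9 with DMSO. They were 224, 232 and 252 in HCC827 with erlotinib, against 336, 354 and 358 in HCC827 with DMSO. The groups were clearly separate in each line and the changes nearly equal, at -0.54 ± 0.08 (adjusted p = 1.25e-05) in PC9 and -0.55 ± 0.08 (adjusted p = 1.71e-05) in HCC827. KIF11, the motor that pushes spindle poles apart, fell by 0.68 in PC9 and by 0.63 in HCC827. KIF14 and KIF23, motors of cytokinesis, fell by 0.73 and by 0.78 in PC9 and by 0.85 and 0.85 in HCC827. KIF20A, another motor of the central spindle, fell by 0.73 in PC9 and by 0.38 in HCC827, and CENPE, the kinesin of the kinetochore, fell by 0.87 and fell by 0.71.

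The chromosomal passengers BIRC5, INCENP and CDCA8 form a complex with AURKB that corrects faulty attachments. All 3 were lower in PC9 and 1 of 3 in HCC827. CDCA8 (borealin) had signals of 314, 329 and 352 in PC9 with erlotinib, against 732, 719.5 and 755 in PC9 with DMSO. HCC827 signals were 435, 477 and 496 with erlotinib, against 842, 786 and 813 with DMSO. The groups did not overlap in either line, and CDCA8 fell by 1.13 ± 0.07 (adjusted p = 3.85e-10) in PC9 and by 0.78 ± 0.07 (adjusted p = 7.01e-08) in HCC827. BIRC5 (survivin) had signals of 1400.3, 1821 and 1677 in PC9 with erlotinib, against 2777, 2612 and 2536 in PC9 with DMSO. The same probe set gave 1908, 2114 and 1998 in HCC827 with erlotinib, against 2115, 2326 and 2049.9 in HCC827 with DMSO. PC9 showed a clear gap, and in HCC827 1 erlotinib array lay above 1 DMSO array. BIRC5 fell by 0.70 ± 0.08 (adjusted p = 8.39e-07) in PC9, and its change in HCC827 was -0.11 ± 0.08 (adjusted p = 0.267). The 3 other BIRC5 probe sets were all lower in both lines, by 0.63 to 1.01 in PC9 and by 0.34 to 0.58 in HCC827. INCENP, the scaffold of the complex, was near the background of the arrays, with 14.5, 11.4 and 17.8 in PC9 with erlotinib, against 24.6, 22.2 and 19.1 in PC9 with DMSO. There it fell by 0.41 ± 0.17 (adjusted p = 0.0389), a call lost without either of 2 arrays of each treatment (adjusted p up to 0.153), with a constant of 1 (adjusted p = 0.0704) and with no filter (adjusted p = 0.062). In HCC827 its signals were 14.6, 8.7 and 11.9 with erlotinib, against 16.9, 12.1 and 8.2 with DMSO, which overlapped, and the change was -0.04 ± 0.17 (adjusted p = 0.87).

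Proteins that assemble the spindle were lower in 7 of 7 cases in both lines (median -0.67 in PC9 and -0.40 in HCC827). PRC1, which bundles microtubules of the central spindle, had signals of 452, 431 and 463 in PC9 with erlotinib, against 756, 673 and 733 in PC9 with DMSO. Its signals were 427, 489 and 431 in HCC827 with erlotinib, against 711, 709.9 and 708 in HCC827 with DMSO. The lines had nearly the same levels under each treatment, and PRC1 fell by 0.67 ± 0.07 (adjusted p = 2.39e-07) in PC9 and by 0.65 ± 0.07 (adjusted p = 7.07e-07) in HCC827. NUSAP1, a microtubule-binding protein of the spindle around chromosomes, had signals of 1071, 1173 and 1177 in PC9 with erlotinib, against 1522, 1558 and 1555 in PC9 with DMSO. In HCC827 they were 1160.4, 1185 and 1193 with erlotinib, against 1489, 1543 and 1563 with DMSO. All groups were separate with a narrow spread, and NUSAP1 fell by 0.44 ± 0.05 (adjusted p = 1.03e-06) in PC9 and by 0.37 ± 0.05 (adjusted p = 1.12e-05) in HCC827. TPX2, which activates AURKA on the spindle, fell by 0.81 in PC9 and by 0.36 in HCC827, and HMMR, its partner at the poles, fell by 0.77 and by 0.34. ASPM of the spindle poles fell by 0.47 and by 0.40, DLGAP5, which stabilises spindle fibres, fell by 0.57 and by 0.46, and CKAP2, a microtubule-associated protein, fell by 0.72 and by 0.57.

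The 3 cytokinesis genes, whose proteins set up and close the cleavage furrow, were lower in both lines (median -0.73 in PC9 and -0.46 in HCC827). ECT2, the exchange factor that switches on RhoA at the furrow, had signals of 834, 773 and 829 in PC9 with erlotinib, against 1184, 1392 and 1495 in PC9 with DMSO. The signals were 971, 1048 and 1083 in HCC827 with erlotinib, against 1747, 1709 and 1701 in HCC827 with DMSO. The groups were well apart and the changes close, at -0.73 ± 0.07 (adjusted p = 2.11e-07) in PC9 and -0.73 ± 0.07 (adjusted p = 4.39e-07) in HCC827. ANLN, the scaffold anillin, had signals of 1460.5, 1332 and 1416 in PC9 with erlotinib, against 1582, 2247 and 2149 in PC9 with DMSO. Its HCC827 arrays gave 1990.5, 1855 and 2237 with erlotinib, against 2446, 2488 and 2407 with DMSO. The first DMSO array of PC9 stood well under the other 2, though still above all the erlotinib arrays. ANLN fell by 0.49 ± 0.10 (adjusted p = 0.000396) in PC9 and by 0.27 ± 0.10 (adjusted p = 0.0286) in HCC827, and the HCC827 call was lost without any of 5 of the 6 HCC827 arrays (adjusted p up to 0.125), without erlotinib replicates 2 and 3 together, with no filter and with no intensity trend. A second ANLN probe set was lower in both lines, by 0.72 in PC9 and by 0.62 in HCC827. RACGAP1, the partner that brings ECT2 to the central spindle, fell by 0.79 in PC9 and by 0.46 in HCC827.

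TOP2A, the topoisomerase that untangles sister chromatids, had signals of 1206, 1351 and 1152 in PC9 with erlotinib, against 1837, 1786 and 1749 in PC9 with DMSO. It had 1671, 1769 and 1838 in HCC827 with erlotinib, against 2210.4, 2292 and 2153 in HCC827 with DMSO. No arrays overlapped, and TOP2A fell by 0.53 ± 0.06 (adjusted p = 6.45e-07) in PC9 and by 0.33 ± 0.06 (adjusted p = 0.000174) in HCC827. MKI67 (Ki-67), which coats mitotic chromosomes and is the common stain for dividing cells, had signals of 211, 246 and 209.8 in PC9 with erlotinib, against 465, 402 and 359 in PC9 with DMSO. HCC827 read 315, 340.0 and 307 with erlotinib, against 563, 591 and 579.6 with DMSO. The groups were separate in both lines, and erlotinib left MKI67 at 54.5% of its DMSO signal in PC9 and at 55.5% in HCC827.

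Both transcription factors of the mitotic wave were lower in both lines. MYBL2, the MuvB partner that acts earlier in the cycle, had signals of 94.5, 119 and 106 in PC9 with erlotinib, against 280.1, 224 and 266 in PC9 with DMSO. Its signals were 128, 111 and 129.6 in HCC827 with erlotinib, against 233, 256 and 255 in HCC827 with DMSO. The lines were at like levels under each treatment, and MYBL2 fell by 1.21 ± 0.10 (adjusted p = 3.31e-08) in PC9 and by 0.97 ± 0.10 (adjusted p = 9.42e-07) in HCC827, among the largest falls of each line. FOXM1, the forkhead factor of G2 phase, had signals of 386, 380.0 and 366 in PC9 with erlotinib, against 595, 546 and 592 in PC9 with DMSO. HCC827 had 526, 616 and 686 with erlotinib, against 828, 825 and 822 with DMSO. FOXM1 did not overlap between treatments in either line and fell by 0.60 ± 0.08 (adjusted p = 5.08e-06) in PC9 and by 0.44 ± 0.08 (adjusted p = 0.000218) in HCC827.

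The fall was larger in PC9 than in HCC827 for many members, and the difference was itself tested as the PC9 change minus the HCC827 change. By point estimate 44 of 50 members fell more in PC9 and 6 fell more in HCC827, with a median difference of -0.24. The difference passed for 18 members, all with the larger fall in PC9, while 24% of all tested genes had a lower change in PC9 and 21.3% a higher one. Among the 18, CDC20 had the largest difference (-0.87 ± 0.17, adjusted p = 0.000709), followed by PBK (-0.73 ± 0.09, adjusted p = 1.07e-05), BIRC5 (-0.59 ± 0.11, adjusted p = 0.000426), BUB1 (-0.57 ± 0.10, adjusted p = 0.000253), MAD2L1 (-0.54 ± 0.12, adjusted p = 0.00224) and KIF2C (-0.51 ± 0.11, adjusted p = 0.00167). AURKB had a value of -0.56 ± 0.25 (adjusted p = 0.0767) and did not pass. The checkpoint and anaphase group had 4 of 5 members among the 18, and the chromosomal passengers had 2 of 3. Kinesins, kinases and spindle proteins had 2 each, of 7, 8 and 7. Of the 18 calls, 10 held in all other settings except the test against 1.5-fold, which none passed. Those 10 were CCNB1, PBK, CDC20, MAD2L1, PTTG1, SPC25, KIF2C, BIRC5, TPX2 and HMMR. On the second probe set of CCNB1 alone the falls were close, at 0.75 in PC9 and 0.68 in HCC827.

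For several members the changes of the lines were close, which the interval of the difference bounds. The difference was -0.02 for CDK1 (95% interval -0.22 to 0.17), -0.06 for PLK1 (-0.34 to 0.22) and -0.02 for MKI67 (-0.29 to 0.26). It was 0.0011 for ECT2 (-0.22 to 0.22) and -0.02 for PRC1 (-0.22 to 0.18). CENPK was the member with the most positive value, 0.39 ± 0.21 (adjusted p = 0.138), which did not pass. Across the 50 members the changes in the lines had a Pearson r of 0.58 and a Spearman rho of 0.58, a description over genes that are not independent and were measured on the same arrays.

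**Figure D4:**
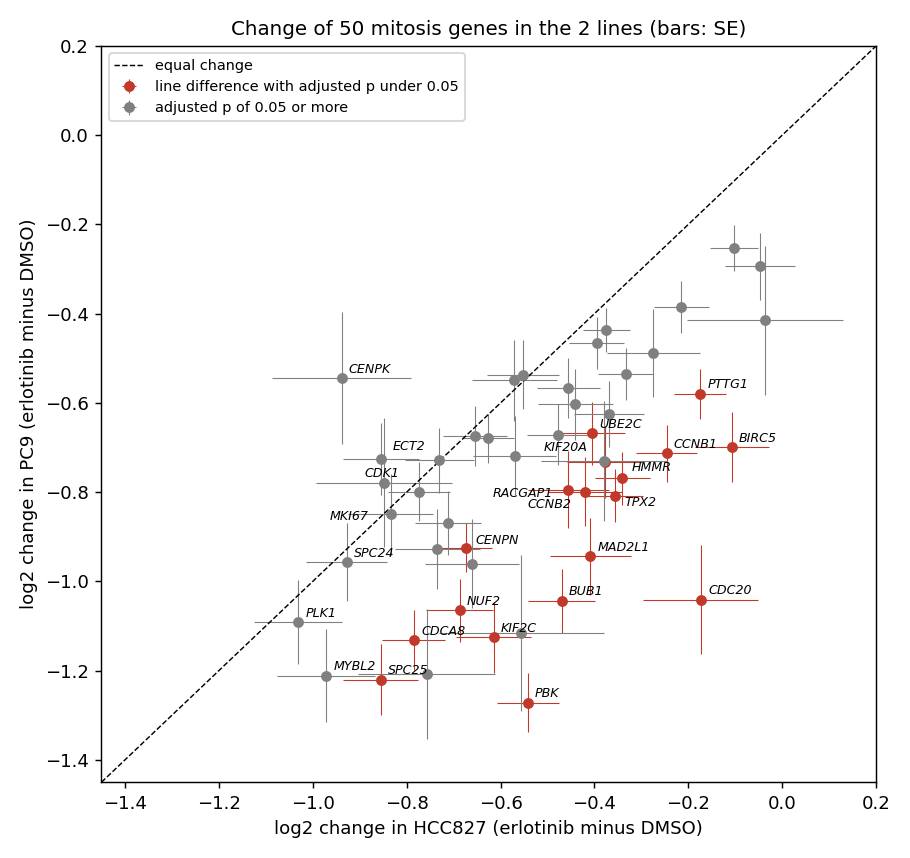
Log2 change of the 50 mitosis genes in PC9 (vertical axis) against HCC827 (horizontal axis), with standard errors. The dashed line marks equal change, and red points are the 18 genes whose change differed between the lines at an adjusted p under 0.05. All 18 lie below the line, CDC20 (-0.87) farthest, while CDK1, PLK1 and MKI67 lie close to it.

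Which probe set stood for a gene mattered for this difference. The 26 members with further probe sets had 46 of them that passed the filter on low signals and were tested. In the medians below, the brightest probe set of a gene counted once for each of its further tested ones. In PC9 43 of these were lower, 0 higher and 3 did not pass, with a median of -0.77, beside -0.73 for the brightest probe sets of the same genes. In HCC827 45 were lower and 1 was higher, with a median of -0.83, beside -0.40 for the brightest ones. The fall was larger than on the brightest probe set for 28 of the 46 in PC9 and for 40 in HCC827. With the mean of all probe sets per gene the median difference between the lines was -0.16, and the differences of CCNB2, BUB1 and CENPN turned to 0.0071, 0.20 and 0.038, which did not pass. The actin 3′/5′ ratio was highest on the HCC827 erlotinib arrays, at 2.45 to 3.64 against 2.10 to 2.21 with DMSO, and its part in the spread between probe sets was not tested.

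The lines also differed in the level of these genes under each treatment. With erlotinib 2 members were higher in PC9 than in HCC827, 35 were lower and 13 did not pass (median -0.47), while 36.3% of all tested genes were higher and 40.1% lower. With DMSO 12 were higher in PC9, 25 were lower and 13 did not pass (median -0.21), beside 36.8% and 39.4% of all genes. All 25 members that were lower in PC9 with DMSO were also lower with erlotinib, joined by 6 that did not pass with DMSO and 4 that were higher there. The 4 were CCNB1, PBK, BIRC5 and HMMR. Only PLK1 and NDC80 stayed higher in PC9 with erlotinib, by 0.54 and 0.59, beside 0.60 and 0.57 with DMSO. KIF2C was the most different with erlotinib (-1.25 ± 0.08, adjusted p = 4.23e-10, PC9 minus HCC827), ahead of AURKB (-1.18), BUB1 (-1.14) and CDC20 (-1.08). CDC20 did not differ at the threshold with DMSO (-0.22 ± 0.12, adjusted p = 0.118). CENPK was the most different with DMSO (-1.36 ± 0.15, adjusted p = 3.44e-07), with 214, 347 and 278 in PC9 and 739, 699.7 and 713 in HCC827, and was -0.97 with erlotinib. These comparisons of lines share arrays with the drug comparisons and are not independent of them.

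**Figure D5:**
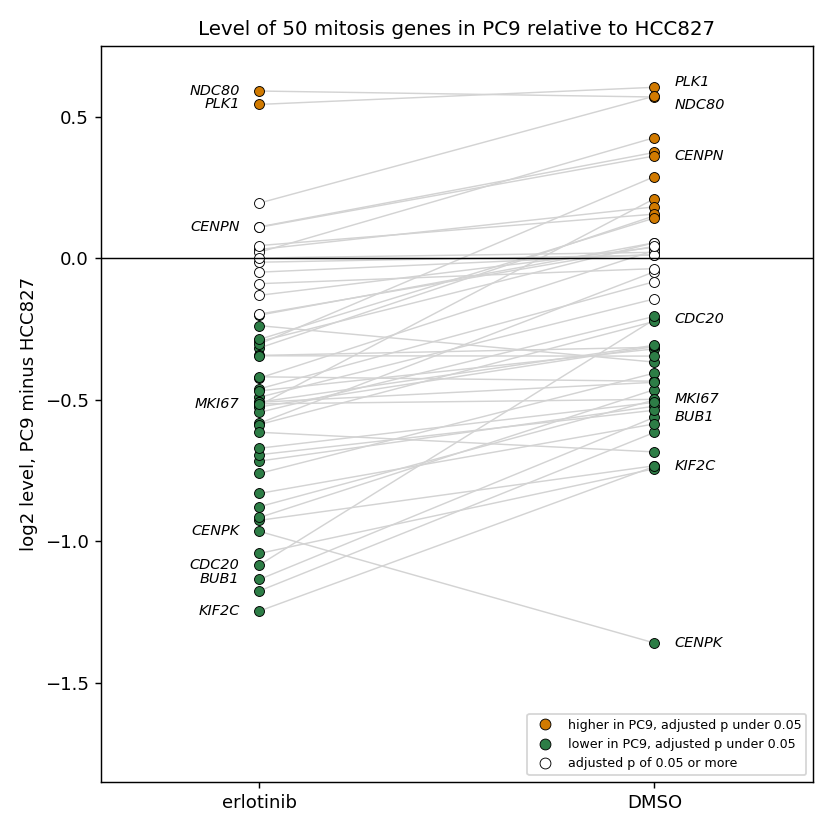
Level of the 50 mitosis genes in PC9 relative to HCC827 (log2 difference) with erlotinib and with DMSO, with a grey line joining the values of each gene. Orange points were higher in PC9, green points lower and white points did not pass. With erlotinib 2 genes are higher and 35 lower, and with DMSO 12 are higher and 25 lower.

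Other genes of the same machinery, listed by function, mostly fell too. Of 130 listed genes 124 were measured and 123 tested, with 94 lower and 8 higher in PC9 and 85 lower and 6 higher in HCC827 (medians -0.54 and -0.38). The shares of all tested genes were 28.3% lower and 36.4% higher in PC9, and 19.5% lower and 32.3% higher in HCC827. Among 31 other kinetochore and centromere proteins 26 were lower in PC9 and 23 in HCC827, led by SKA3, which keeps kinetochores on moving microtubule ends (-1.23 in PC9, -1.03 in HCC827), by SGO1, the guardian of centromeric cohesion (-0.96, -1.27), and by HJURP, the chaperone of CENPA (-0.82, -0.94). CENPT, an inner kinetochore protein, was higher in PC9 (1.01), with 0.15 in HCC827. Among 28 other kinesins and spindle proteins 24 were lower in PC9 and 23 in HCC827, with DEPDC1B (-1.27, -0.82), ARHGAP11A (-0.996, -0.89) and TROAP (-0.96, -0.88) in front. Condensin and cohesin, the rings that fold and hold chromatids, had 14 of 17 genes lower in each line, most of all the condensin subunit NCAPH (-1.27, -1.02), while the cohesin regulator PDS5B was 0.26 in PC9 and -0.51 in HCC827, both past the test. Of 15 further regulators of CDK1 entry 13 were lower in PC9 and 12 in HCC827, including CDCA2 (-1.20, -0.81), the PLK1 activator BORA (-0.90, -0.99) and CDC25A (-1.13, -0.75). WEE1, the kinase that restrains CDK1, was higher in HCC827 (0.20 ± 0.08, adjusted p = 0.0339) and did not pass in PC9 (0.16 ± 0.08, adjusted p = 0.0656).

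The anaphase-promoting complex tags securin and cyclin B for destruction. Of 17 genes of the complex and its regulators 10 were lower and 2 higher in PC9, and 5 lower and 2 higher in HCC827. Among all tested genes 28.3% were lower and 36.4% higher in PC9, and 19.5% lower and 32.3% higher in HCC827. The 3 largest falls were those of the inhibitor FBXO5 (-0.64 in PC9, -0.85 in HCC827), the chain-extending enzyme UBE2S (-0.88, -0.45) and separase ESPL1 (-0.81, -0.36). Core subunits that were higher were ANAPC13 (0.19) and ANAPC16 (0.19) in PC9 and ANAPC11 (0.32) and CDC16 (0.21) in HCC827, and ANAPC11 fell by 0.34 in PC9. Among 15 genes of MuvB, DREAM and NF-Y 7 were lower and 4 higher in PC9, and 8 lower and 3 higher in HCC827, beside the same shares of all tested genes. Binding of these proteins to the promoter words shown above was not measured. The pocket protein RBL1 (p107) fell by 1.14 ± 0.13 (adjusted p = 1.01e-06) in PC9 and by 0.91 ± 0.13 (adjusted p = 2.14e-05) in HCC827. RBL2 (p130), the pocket protein of DREAM in resting cells, was higher by 0.54 ± 0.09 (adjusted p = 3.83e-05) in PC9 and by 0.61 ± 0.09 (adjusted p = 2.15e-05) in HCC827. The MuvB subunit LIN37 was higher in both lines (0.58 in PC9, 0.35 in HCC827). MYBL1, a relative of MYBL2, was higher in PC9 (0.69), TFDP2, a partner of E2F factors, in HCC827 (0.31), and the NF-Y subunit NFYB was 0.35 in PC9 and -0.23 in HCC827, both past the test.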

How the data were processed

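RNA of PC9 and HCC827 was hybridised to 12 one-colour arrays, 3 per group. The authors deposited 1 signal intensity, on a linear scale, for each probe set of each array, made with MAS5 per the submitters' processing notes, with no version given, and the values show that each array was scaled to the same trimmed mean of 150 (2% trimmed). Arrays had median signals of 11.1 to 14.5 and correlated within groups at r of 0.9943 to 0.9973. Of 54675 probe sets, 62 are controls, 41091 have 1 gene symbol, 1801 several and 11721 none, and 0 symbols were updated. Each of 19775 genes was represented by its brightest probe set, by mean log2(signal + 8). Picking by mean signal gave the same one for 48 of the 50 members, all but BUB3 and TOP2A. Genes were tested if the mean of any group reached a signal of 13, the table median (13165 genes). The test was limma 3.58.1 in R 4.3.3, with 1 mean per group over all 12 arrays, an intensity trend and Benjamini-Hochberg adjustment over all genes. Tested on simulated data for PC9 (13165 genes, 200 changed), it recovered 72% of log2 changes of 0.5 and 96% of changes of 1, with 9 false calls.

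Full values are given for the members with the largest and the smallest change of each of 10 roles, those not called in a line and the 4 largest line differences, and other genes for the 3 largest changes of a list or a rise. The members, roles and lists were chosen with earlier results of these data known. Promoters are from the RefSeq table for GRCh38.p14. Alternatives were other constants (1 and 32), normalizations, filters and probe set rules, the actin ratio as covariate, replicate blocks and each array left out, and the covariate and the fit without HCC827 erlotinib replicates 2 and 3 had been devised after seeing these data.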

Additional observations from a re-analysis of the deposited data

Results flagged for a closer look

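The change after erlotinib differed between the lines, by a test of the difference itself in limma, for 18 of the 50 mitosis genes. By the same test 24% of all tested genes had a lower change in PC9 and 21.3% a higher one. The values of the 18 genes are PC9 change minus HCC827 change (log2). All are negative, which means the larger fall was in PC9. Among the cyclins the difference was -0.47 for CCNB1 and -0.38 for CCNB2. Among the kinases it was -0.73 for PBK and -0.57 for BUB1. Of the checkpoint and anaphase genes CDC20 differed by -0.87, MAD2L1 by -0.54, PTTG1 by -0.40 and UBE2C by -0.26. Kinetochore genes gave -0.38 for NUF2, -0.36 for SPC25 and -0.25 for CENPN. The kinesins KIF2C and KIF20A gave -0.51 and -0.35, and the passengers BIRC5 and CDCA8 gave -0.59 and -0.35. TPX2 and HMMR of the spindle gave -0.45 and -0.43, and RACGAP1 of cytokinesis gave -0.34.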

How the results depend on the processing

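In PC9 the count of lower members was 49 or 50 in every setting except the test against 1.5-fold, where 22 passed. In HCC827 it was 38 to 47 except in that test, where 5 passed. Of the 13165 tested genes, that test called 661 lower in PC9 and 239 in HCC827. The 1.5-fold test also left 0 line differences, 1 lower and 0 higher member between the lines with DMSO, and 10 lower and 0 higher with erlotinib. Over the 13165 genes it left 497 lower and 634 higher line differences. Between the lines it left 2118 lower and 1760 higher genes with DMSO, and 2137 lower and 1816 higher with erlotinib. Centring on the array median gave medians of -0.88 in PC9, -0.58 in HCC827 and -0.31 for the difference. The mean of all probe sets gave -0.57 in HCC827, -0.16 for the difference and 6 members higher in PC9 with erlotinib. Quantile normalization gave -0.18 for the difference and 7 members higher in PC9 with DMSO, and the actin ratio covariate gave -0.17 for the difference. Leaving out each array in turn gave medians of -0.22 to -0.15 between the lines with DMSO (-0.15 without PC9 DMSO replicate 2) and of -0.49 to -0.41 with erlotinib (-0.41 without PC9 erlotinib replicate 1), and 15 to 21 line differences. Without HCC827 erlotinib replicates 2 and 3, whose actin ratios were the highest, 12 line differences and 40 lower members in HCC827 passed. That fit takes the spread of the single remaining array from the other groups.

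In HCC827 values that had not passed changed sign for CENPF (0.018 without erlotinib replicate 1, and -0.11 without DMSO replicate 1), BIRC5 (0.0077 with the covariate) and INCENP (0.092 with the covariate, 0.17 without erlotinib replicates 2 and 3, and -0.19 to 0.12 over arrays left out). Among line differences CCNB2 (0.0071), BUB1 (0.20) and CENPN (0.038) turned with the mean of probe sets. The causes were not tested. Split by direction, all tested genes gave 4790 higher and 3731 lower in PC9, against 3965 and 4455 with quantile normalization and 3567 and 5009 with centring. In HCC827 they gave 4247 and 2571, against 3360 and 3588 and 3242 and 3195. Replicate numbers did not pair the arrays (correlation of same-numbered arrays -0.26 to -0.02 in PC9 and 0.011 to 0.13 in HCC827). With the number as a block 50 members were lower in PC9, 45 in HCC827 and 18 differed between the lines. UBE2C then missed the threshold (adjusted p = 0.0544). The number of arrays and the signal over background limit the precision, most for INCENP.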

Other observations

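The 8 members without a CHR word in their promoter had median log2 changes of -0.96 in PC9 and -0.62 in HCC827, and the 33 with one had medians of -0.73 and -0.55. The range without a word lay within the wider range with one. In PC9 the ranges were -1.21 to -0.54 and -1.22 to -0.29, and in HCC827 -0.97 to -0.37 and -1.03 to -0.04. The difference between members with and without a word was not tested.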
